A study of Mus musculus with 20 samples.

Results

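The numbered Zfp genes are mouse genes whose symbol is Zfp followed only by digits, and most of them encode proteins with C2H2 zinc fingers. They were chosen by symbol and by level: the count table listed 337 such symbols among 24421 genes, and 207 of them had a mean count of at least 100 over the 20 libraries once Zfp36, which encodes an mRNA-binding protein of another finger type, was left out. The other 129 symbols lay under that minimum, 10 of the 337 had no count in any library, and all 207 members were tested together with the rest of the 12465 genes that passed the filter on low counts. Because the mean level over all libraries chose the members, the level itself is a description here and carries no test. Just inside the minimum were Zfp467, Zfp189 and Zfp202, with mean counts of 100.5, 103.8 and 103.8, and just outside it were Zfp455, Zfp605 and Zfp759, with 97.7, 93.6 and 93.05.

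RNA was sequenced from bone marrow-derived dendritic cells (BMDCs) of 5 wild-type C57BL/6 mice, named A to E. Bone marrow was grown for 8 days with the growth factor GM-CSF at 40 ng/mL. Each culture then received either ovalbumin alone (Ova) or ovalbumin bound by IgG as an immune complex (IC) for 4 hours. Each stimulus was combined either with I-BET151 (iBET) at 3.3 μM, an inhibitor of the bromodomain and extra-terminal (BET) proteins that read acetylated histones, or with DMSO, given as 5% in the labels. Crossing both treatments with both stimuli gave 4 groups of 5 libraries, 1 from every mouse. The labels list iBET and the stimulus together, whereas the methods place iBET shortly before it. The labels name no DMSO content for the iBET groups, so a difference in solvent and the effect of iBET cannot be told apart.

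C2H2 zinc fingers are short folds held by a zinc ion that lie side by side along a protein and read DNA a few bases at a time. Many of these proteins also carry a KRAB domain, which recruits the corepressor Trim28 (KAP1) and through it enzymes that place repressive histone marks, and they are known for silencing endogenous retroviruses and other repeats. Their genes often lie in tandem groups that arose by duplication. Numbered Zfp genes without a KRAB domain have diverse roles, from promoter binding to RNA processing and ribosome quality control.

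Among the members, 109 encoded a KRAB pattern and 98 did not. A member encoded a median of 11 C2H2 finger patterns, with a range from 0 to 37, in a protein of a median of 603 residues. KRAB members had a median of 12 finger patterns against 7 for the others. The genes were spread unevenly over the genome: 50 lay on chromosome 7, 30 on chromosome 17, 16 on chromosome 13, 15 on chromosome 8 and 13 on chromosome 9. These 5 chromosomes held 29, 25, 13, 10 and 10 of the KRAB members.

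The members that moved together in neighbouring positions are shown first by their promoters, because 2 neighbours that rose with iBET and 2 neighbours that fell with it can be read side by side. Each sequence is the RefSeq window (GRCm38.p6) from 250 bases before to 50 bases after the start of the gene, on its own strand, written 5′ to 3′. Capitals mark the motifs GGGCGG (a GC box) and CCAAT, on either strand, while TATAAA was searched too and was absent from all 4 windows. Zfp963 (chr8:69749913-69750212, minus strand) and Zfp866 (chr8:69774862-69775161, minus strand) rose, and Zfp560 (chr9:20385109-20385408, minus strand) and Zfp26 (chr9:20460111-20460410, minus strand) fell. The RefSeq start of Zfp866 lies within the longer gene span that GENCODE gives, which ends at position 69791178. Of the exon bases of Zfp963 and Zfp866, 40.76% and 7.802% overlap other annotated genes. For both, the annotated gene Gm20422 shares the most transcript sequence.
Zfp963: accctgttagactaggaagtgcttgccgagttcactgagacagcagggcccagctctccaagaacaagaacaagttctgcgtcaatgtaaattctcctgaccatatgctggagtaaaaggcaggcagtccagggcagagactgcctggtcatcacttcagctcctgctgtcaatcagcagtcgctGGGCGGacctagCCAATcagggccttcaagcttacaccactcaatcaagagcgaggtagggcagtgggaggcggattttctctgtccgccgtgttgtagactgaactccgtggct
Zfp866: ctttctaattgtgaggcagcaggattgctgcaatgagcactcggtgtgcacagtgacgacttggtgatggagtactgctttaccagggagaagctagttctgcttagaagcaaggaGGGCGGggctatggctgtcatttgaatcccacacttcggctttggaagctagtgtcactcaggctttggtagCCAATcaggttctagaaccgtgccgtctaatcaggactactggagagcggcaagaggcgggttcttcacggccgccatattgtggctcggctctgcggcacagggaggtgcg
Zfp560: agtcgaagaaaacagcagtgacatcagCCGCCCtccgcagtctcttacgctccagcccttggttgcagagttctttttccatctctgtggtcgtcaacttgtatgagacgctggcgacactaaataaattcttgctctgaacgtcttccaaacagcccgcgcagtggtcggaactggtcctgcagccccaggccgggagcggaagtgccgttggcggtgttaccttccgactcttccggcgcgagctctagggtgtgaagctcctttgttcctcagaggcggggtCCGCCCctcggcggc
Zfp26: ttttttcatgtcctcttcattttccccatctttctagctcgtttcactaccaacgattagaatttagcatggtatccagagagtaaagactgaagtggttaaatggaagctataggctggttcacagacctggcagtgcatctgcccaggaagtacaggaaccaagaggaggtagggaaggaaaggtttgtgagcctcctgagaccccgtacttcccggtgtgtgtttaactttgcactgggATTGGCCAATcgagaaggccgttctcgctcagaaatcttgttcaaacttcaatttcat

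The 2 rising genes each held 1 GC box and 1 CCAAT, Zfp560 held 2 GC boxes and no CCAAT, and Zfp26 held no GC box and 2 CCAAT motifs that meet end to end on opposite strands. The GC content of these windows was 54%, 54.67%, 58.67% and 45.67%, in that order. Promoter windows were found for 172 members. A GC box was present in 50.58% of them, against 67.27% of 7492 genes with the same count minimum and 35.91% of all 27025 promoters. CCAAT was present in 50% of the members' windows, in 56.12% of those of KRAB members and in 41.89% of those of the others, against 39.16% of the genes with the same minimum. TATAAA was rare in members, at 5.233%, as in genes with the same minimum, at 6.367%. The median GC content was 55.33% for members and 61.33% for genes with the same minimum.

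Levels are given as CPM, the count of a gene relative to the scaled total of its library. Total counts ran from 16447491 to 29245150 per library. The 4 libraries of a mouse tended to deviate alike. The fit with mouse as a replicate block is therefore given for each named member whose call it changes. The counts of members that it called are given with the immune complex results and in the closing section. The 7 listed dendritic cell markers summed to 4283 to 8831 CPM in a library, with Cd74 the highest, and 1 of them was lower with iBET under each stimulus. Levels of the other listed markers are not given here, so the sum does not speak for each of them. Of 7 macrophage markers, 4 were lower with iBET under Ova and 3 under IC, and their summed level was 1657 to 2214 CPM in DMSO Ova, 1152 to 1469 in iBET Ova, 1655 to 2242 in DMSO IC and 1200 to 1686 in iBET IC. None of the 4 T cell and 3 B cell markers passed the filter, with sums of at most 0.8003 and 0.4084 CPM. Of 5 neutrophil markers tested of 7, 1 was higher with iBET under each stimulus, and their sums overlapped between groups, from 12.13 to 51.33 CPM. Of 3 cycling-cell genes, 2 were lower with iBET under IC, with sums of 269.4 to 407.5 CPM in DMSO IC and 223.2 to 293.5 in iBET IC. No listed marker was at 0 in all libraries. The part of these shifts in the results below was not tested, and in bulk RNA fewer cells of a type and less RNA per cell cannot be told apart.

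The first question was how the members responded to BET inhibition. Genes were tested with the quasi-likelihood method of edgeR, p values were adjusted over the 12465 genes by the Benjamini-Hochberg procedure, and a gene was called higher or lower at an adjusted p under 0.05. With Ova, 55 of the 207 members were higher with iBET and 63 were lower. Among all genes tested 27.7% were higher and 28.9% lower, and among the 9782 with the same count minimum 30.2% were higher and 28.5% lower, so the members' 26.57% and 30.43% lay near the background. With IC, 50 members were higher and 67 lower, or 24.15% and 32.37%, against 27.1% and 29% of all genes and 29.4% and 28.8% of those with the same minimum. The median log2 fold change of the members was -0.03 with Ova and -0.04 with IC, beside 0.02 and 0.01 for genes with the same minimum. Large changes were few: 11 members (5.314%) moved by at least 1 on the log2 scale with Ova and 15 (7.246%) with IC, against 10.41% and 10.48% of the genes with the same minimum. In mice A and B alone, a split carried over from earlier work on these data since the labels name no batch, 48 members were higher and 32 lower with Ova (21.4% and 22.6% of all genes), and 31 and 42 with IC (20.4% and 21.6%). In mice C, D and E alone the counts were 48 and 63 with Ova (30.8% and 27.8% of all genes) and 50 and 61 with IC (28.7% and 28.8%).

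**Figure D1:**
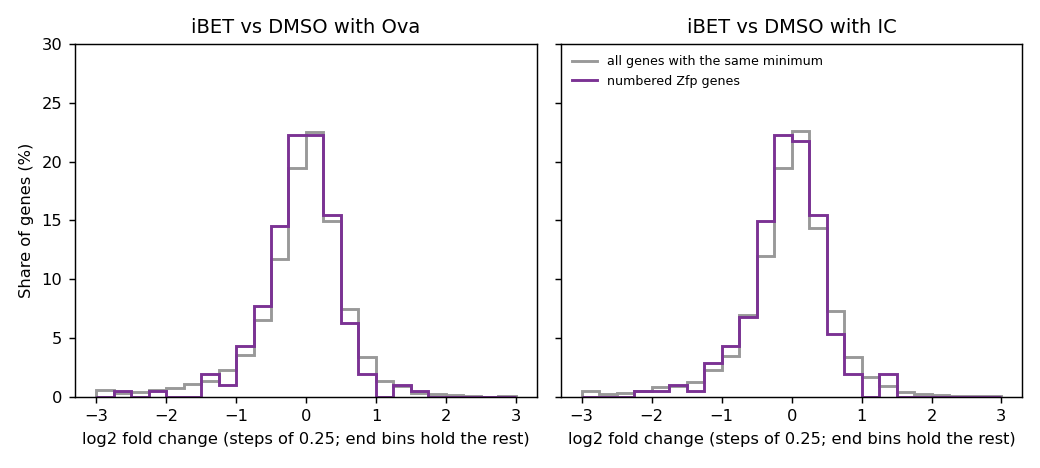
Share of genes in percent (vertical axis) by log2 fold change of iBET against DMSO in steps of 0.25 (horizontal axis), with Ova at left and IC at right, for the 207 numbered Zfp genes and for the 9782 genes with the same count minimum. The outlines largely coincide, and the numbered Zfp genes hold a smaller share beyond 1 in either direction.

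The same members moved under both stimuli. Of the 207, 45 were higher in both contrasts, 57 were lower in both, 31 passed the threshold in 1 contrast and 74 in neither, and none passed in opposite directions. In genes with the same minimum 26.3% were higher in both and 25.03% lower in both, and 2 passed in opposite directions, against 21.74% and 27.54% of the members. The log2 fold changes of the 2 contrasts, which use different libraries of the same mice, had a Pearson r of 0.96 across members and 0.97 across genes with the same minimum, and genes are not independent replicates. In 41 of the 45 and 53 of the 57, each of the 5 mice moved the same way under both stimuli. These members had been called from the same mice, so such agreement is no separate evidence. The same count is not given here for other genes. For 17 members the mean count fell under 100 in at least 1 group. Among them were Zfp619, Zfp963 and Zfp503, which were under it in at least 1 DMSO group, and Zfp467, Zfp532, Zfp41, Zfp189, Zfp128 and Zfp560, which were under it in both iBET groups, so the minimum and the change are not independent for these genes. Without them 51 members were higher and 53 lower with Ova, and 46 and 58 with IC, a cut chosen after the data were seen.

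Of the 129 numbered Zfp genes under it, 84 passed the filter on low counts, and of these 11 were higher and 32 lower with Ova and 8 and 30 with IC, with median log2 fold changes of -0.27 and -0.32. A gene with few counts passes the filter more easily through the group where it is high, so these counts are given only to account for the genes.

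**Figure D2:**
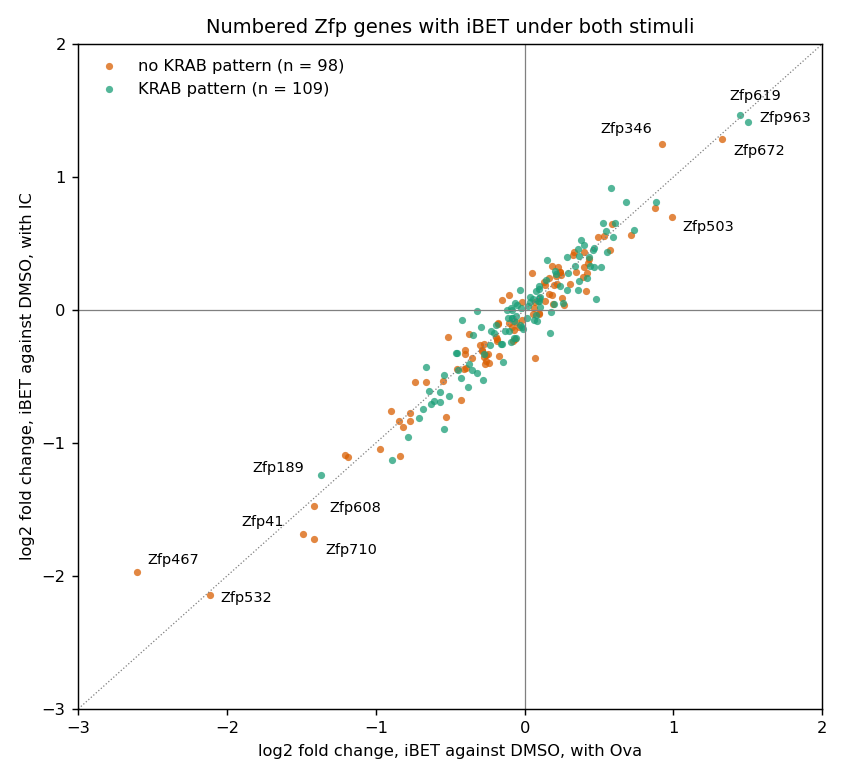
Log2 fold change of iBET against DMSO with Ova (horizontal axis) and with IC (vertical axis) for each of the 207 numbered Zfp genes, in green for the 109 with a KRAB pattern and orange for the 98 without. The points follow the dotted line of equal change, the largest rises are Zfp963, Zfp619 and Zfp672, and most of the largest falls, led by Zfp467 and Zfp532, lack the KRAB pattern.

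KRAB members split nearly evenly. With Ova 27 of 109 (24.77%) were higher and 26 (23.85%) lower. With IC 26 (23.85%) were higher and 31 (28.44%) lower. The median log2 fold changes with Ova and IC were -0.01 and -0.00. Among genes with the same minimum, 30.2% were higher and 28.5% lower with Ova, and 29.4% and 28.8% with IC. Among the 98 members without the pattern, 28 (28.57%) were higher and 37 (37.76%) lower with Ova. With IC 24 (24.49%) were higher and 36 (36.73%) lower, and the medians with Ova and IC were -0.07 and -0.10. With Ova, 3 members with the pattern (2.752%) and 8 without it (8.163%) moved by at least 1 on the log2 scale. With IC, 4 (3.67%) and 11 (11.22%) did so. Among genes with the same minimum the shares with Ova and IC were 10.41% and 10.48%. The sets differed in level, with a median of 10.69 CPM in KRAB members, 20.24 in the others and 34.83 in genes with the same minimum. The part of level in the shares called was not tested. The 45 zinc finger genes named Zbtb, Zscan or Zkscan with the same minimum gave 12 higher (26.67%) and 13 lower (28.89%) with Ova. With IC they gave 12 (26.67%) and 14 (31.11%). Of the 16 corepressor genes through which KRAB proteins work, 5 were higher (31.25%) and 4 lower (25%) under each stimulus. Trim28, the scaffold that the KRAB domain binds, rose by 0.64 and 0.69 on the log2 scale (adjusted p = 1.89e-07 and 7.21e-08, edgeR), and Cbx5, which encodes a heterochromatin protein, by 1.11 and 1.04. Among its listed relatives, Cbx3 fell by 0.53 and 0.58, and Cbx1 rose by 0.31 with Ova and stood at 0.16 with IC (adjusted p = 0.232, edgeR). Fam208a fell by 0.68 and 0.75. Chd3, a remodeller, fell by 0.86 and 0.74, and Setdb1, the histone methyltransferase of the complex, fell by 0.16 with Ova (adjusted p = 0.0167) and stood at -0.10 with IC (adjusted p = 0.11).

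Finger numbers were similar among members that moved and members that did not. Members higher in both contrasts encoded a median of 9 finger patterns, those lower in both 10, and those past the threshold in neither 11. Spearman's rho with the mean log2 fold change of both iBET contrasts was 0.005 for the number of fingers, -0.085 for exon length and 0.153 for mean CPM over 207 members, and 0.068 for promoter GC content over 172. A GC box stood in 64.1% of the promoter windows of members higher in both, in 51.11% of those lower in both and in 37.5% of those in neither. These shares are descriptions over 39, 45 and 64 windows, and the same split is not given here for other genes. KRAB members were 22 of the 45 higher in both, 24 of the 57 lower in both and 45 of the 74 in neither. A GC box stood in 43.88% of the windows of KRAB members and in 59.46% of those of the others. A link between GC boxes and the response to iBET was not tested.

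The largest rise in the mean over both stimuli was that of Zfp619, a KRAB gene with 33 finger patterns in 1161 residues (chr7:39517766-39540420, plus strand, GRCm38). It measured 4.641, 5.867, 5.367, 5.006 and 5.743 CPM in mice A to E with DMSO Ova and 14.82, 19.24, 13.41, 12.52 and 12.51 CPM with iBET Ova. With IC it measured 3.816, 3.902, 4.479, 4.246 and 4.343 CPM without iBET and 11.58, 13.14, 11.43, 8.438 and 13.01 CPM with it. Every iBET library was above every DMSO library, and the groups did not overlap under either stimulus. The rise was 2.73-fold with Ova (log2 1.45, SE 0.13, adjusted p = 1.23e-08, edgeR) and 2.77-fold with IC (log2 1.47, SE 0.13, adjusted p = 1.27e-08).

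Zfp963, a KRAB gene on chromosome 8 whose promoter is printed above, measured 3.509, 3.852, 3.06, 3.186 and 2.82 CPM with DMSO Ova and 8.844, 12.3, 9.214, 7.653 and 8.618 CPM with iBET Ova. With IC the values were 2.915, 2.904, 1.866, 2.622 and 2.517 CPM with DMSO and 7.546, 7.572, 6.363, 6.054 and 6.56 CPM with iBET. The groups stood apart in both settings, with mouse B the highest of the iBET Ova libraries. The levels were 2.84-fold and 2.66-fold higher with iBET (adjusted p = 1.57e-08 and 4.89e-08, edgeR). Of its exon bases 40.76% overlap other annotated genes and 37.96% of its 100-base windows occur in another transcript, so the value depends on how such reads were counted. Its mean count was 73.8 in DMSO Ova and 56.8 in DMSO IC against 196 and 154.4 with iBET, so it reached the minimum through the iBET groups.

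Zfp672 (chr11:58315114-58330339, minus strand) has 14 finger patterns and no KRAB pattern. Its levels were 14.04, 13.63, 14.12, 12.78 and 12.87 CPM with DMSO Ova and 37.27, 36.31, 33.36, 30.34 and 32 CPM with iBET Ova. They were 11.45, 12.3, 11.15, 10.91 and 11.61 CPM with DMSO IC and 30.11, 31.61, 26.95, 25.7 and 25.63 CPM with iBET IC. All 10 iBET libraries were above all 10 DMSO libraries. The fold was 2.51 with Ova (log2 1.33, SE 0.07, adjusted p = 1.38e-11, edgeR) and 2.44 with IC (log2 1.29, SE 0.07, adjusted p = 2.36e-11).

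Zfp346 encodes a protein that binds double-stranded RNA (chr13:55105311-55134825, plus strand). It measured 10, 11.38, 12.33, 12.43 and 12.92 CPM in DMSO Ova, 22.73, 21.25, 21.87, 22.64 and 23.51 in iBET Ova, 7.738, 7.623, 8.398, 7.95 and 9.092 in DMSO IC and 18.94, 20.48, 19.55, 18.07 and 20.18 CPM in iBET IC. Each iBET group lay wholly above its DMSO group, and the DMSO IC libraries lay wholly below the DMSO Ova libraries. The rise with iBET was 1.9-fold with Ova and 2.38-fold with IC (adjusted p = 1.64e-09 and 3.05e-11, edgeR).

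The other 6 of the 10 largest rises ran from 1.48-fold to 1.98-fold and were seen in 5 of 5 mice under both stimuli. Zfp866, the neighbour of Zfp963, rose by 0.88 and 0.81 on the log2 scale with Ova and IC. Zfp503, a developmental regulator of the NET family with no counted finger pattern, rose by 0.99 and 0.70. Zfp664 rose by 0.88 and 0.77, Zfp60 by 0.68 and 0.81, Zfp871 by 0.73 and 0.60, and Zfp655 by 0.71 and 0.56. Zfp871 was among the most abundant of them, with 100.5 ± 14.2 CPM in DMSO Ova and 167 ± 39.8 CPM in iBET Ova (SD, n = 5).

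**Figure D3:**
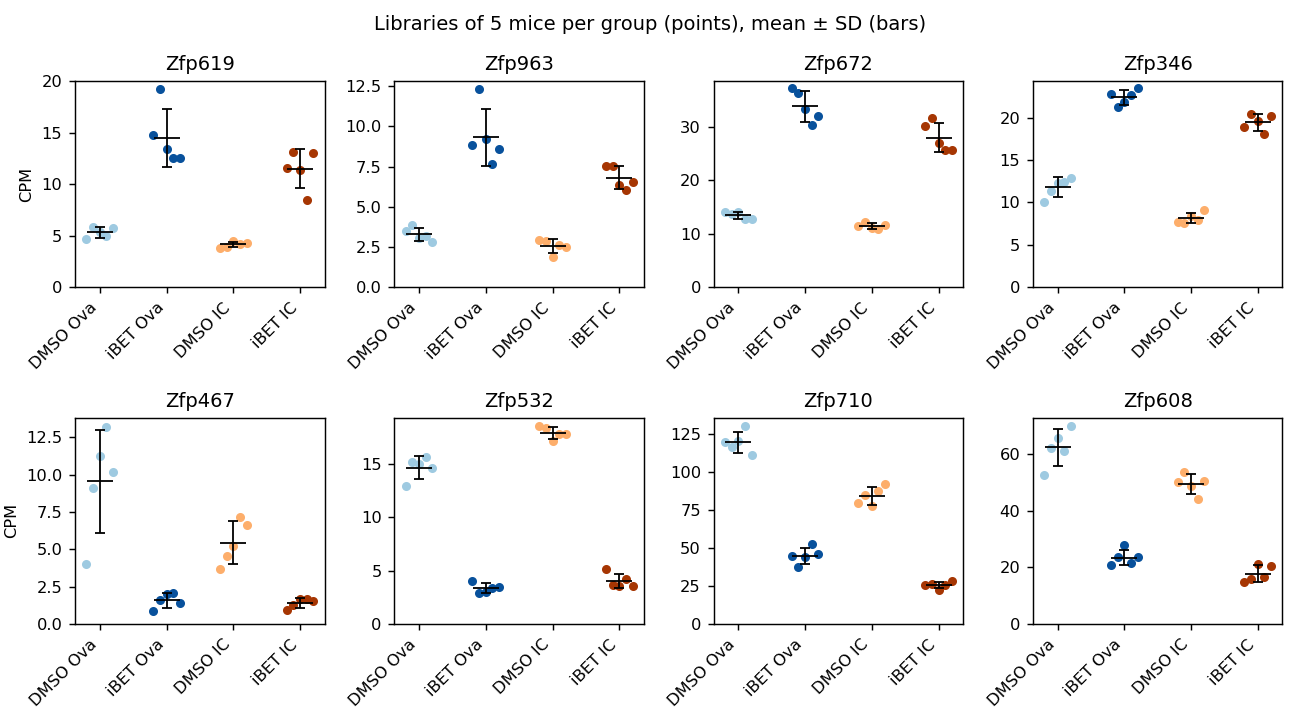
CPM in each library (points, 5 mice a group, axes from 0) with mean and SD (black bars) for 4 members that rose with iBET (upper row) and 4 that fell (lower row). The iBET libraries lie wholly above the DMSO libraries of the same stimulus for Zfp619, Zfp963, Zfp672 and Zfp346, and wholly below them for Zfp467, Zfp532, Zfp710 and Zfp608.

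The largest fall in the mean over both stimuli was that of Zfp467, which encodes a regulator of the choice between fat and bone lineages (chr6:48427697-48445825, minus strand). It measured 4.038, 9.127, 11.25, 13.2 and 10.2 CPM with DMSO Ova and 0.848, 1.626, 1.983, 2.071 and 1.38 CPM with iBET Ova. With IC it measured 3.71, 4.537, 5.226, 7.159 and 6.657 CPM with DMSO and 0.9248, 1.249, 1.655, 1.669 and 1.557 CPM with iBET. Mouse A was the lowest in all 4 groups, and still no iBET library reached a DMSO library. On the log2 scale it fell by 2.61 with Ova (SE 0.29, adjusted p = 2.70e-07, edgeR) and by 1.97 with IC (SE 0.29, adjusted p = 1.07e-05). Its mean count lies just inside the minimum, and it entered through the DMSO groups.

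Zfp532, on chromosome 18, encodes a partner of Zfp592, Zfp687 and Zmynd8 in a chromatin complex. Its levels were 12.87, 15.17, 14.92, 15.61 and 14.56 CPM in DMSO Ova, 4.038, 2.873, 3.032, 3.331 and 3.472 in iBET Ova, 18.5, 18.29, 17.08, 17.73 and 17.74 in DMSO IC and 5.179, 3.635, 3.569, 4.195 and 3.558 CPM in iBET IC. The DMSO libraries were all above 12 CPM and the iBET libraries all below 6 CPM. It fell by 2.12 and 2.14 on the log2 scale (SE 0.11 and 0.10, adjusted p = 4.09e-12 and 2.49e-12, edgeR). Of its exon bases 28.73% overlap other annotated genes.

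Zfp710 (chr7:80024814-80094173, plus strand) has 11 finger patterns and was far more abundant. It measured 119.6, 116.2, 120.1, 130.2 and 111 CPM in DMSO Ova, 44.46, 37.4, 43.85, 52.36 and 46.02 in iBET Ova, 79.55, 84.89, 77.45, 87.28 and 91.81 in DMSO IC and 25.67, 26.01, 22.24, 25.41 and 28.13 CPM in iBET IC. The 4 groups did not overlap with each other, and levels descended from DMSO Ova through DMSO IC and iBET Ova to iBET IC. It fell by 1.41 with Ova and by 1.72 with IC on the log2 scale (SE 0.08 in both, adjusted p = 1.95e-11 and 1.50e-12, edgeR).

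Zfp608, on chromosome 18, encodes a factor known for repressing the Rag genes in thymocytes. It measured 52.68, 62.41, 65.86, 61.37 and 70.2 CPM in DMSO Ova, 20.76, 23.58, 27.82, 21.74 and 23.55 in iBET Ova, 50.35, 53.95, 48.8, 44.08 and 50.49 in DMSO IC and 14.8, 15.79, 21.16, 16.73 and 20.68 CPM in iBET IC. No iBET library came near a DMSO library. On the log2 scale its change with iBET was -1.41 under Ova and -1.48 under IC (SE 0.10 and 0.11, adjusted p = 9.19e-10 and 5.30e-10, edgeR).

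The other 6 of the 10 largest falls, each in 5 of 5 mice under both stimuli, included 2 KRAB genes. Zfp189, a KRAB gene with 16 finger patterns, fell by 1.37 and 1.25, and Zfp128, a KRAB gene with 7, by 0.89 and 1.13. Zfp189, Zfp128 and Zfp41 reached the minimum through the DMSO groups, with mean counts of at most 76.6 in the iBET groups. Zfp41 fell by 1.49 and 1.68, Zfp236 by 1.19 and 1.11, and Zfp358 by 0.97 and 1.05. Zfp362 fell by 1.21 and 1.09 with a wide spread between mice, from 8.377 CPM in mouse A to 20.48 CPM in mouse C with DMSO Ova, and from 4.361 to 8.509 CPM with iBET Ova, so that the groups overlapped at their edges under Ova.

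Of 10 members with roles in RNA, ribosomes and the spindle, 7 were higher and 2 lower with iBET under Ova, and 5 were higher and 2 lower under IC, in a list of few genes chosen by role beside 27.7% higher and 28.9% lower of all genes under Ova and 27.1% and 29% under IC. Zfp598, the ubiquitin ligase that marks collided ribosomes, rose 1.45-fold and 1.47-fold, from 34.7 ± 4.06 to 50.3 ± 4.72 CPM with Ova and from 28.2 ± 3.97 to 41.6 ± 4.08 CPM with IC (SD, n = 5). Zfp622, which acts in the maturation of the large ribosomal subunit, rose 1.32-fold and 1.35-fold, whereas Zfp593, another factor of that subunit, stood at -0.19 and -0.20 on the log2 scale (adjusted p = 0.243 and 0.22, edgeR) and shares 77.92% of its exon bases with other annotated genes. Zfp207, a spindle protein that loads Bub3 onto kinetochores, rose 1.12-fold and 1.18-fold. Without mouse C its adjusted p with Ova was 0.0773.

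In the same list Zfp638, which takes part in the silencing of unintegrated viral DNA, fell by 0.39 and 0.43 on the log2 scale. Zfp326, a subunit of a complex that links elongation and splicing, fell by 0.53 and 0.81, and without mouse D the adjusted p with Ova was 0.063. Zfp330, a nucleolar protein, rose by 0.27 with Ova and stood at 0.03 with IC (adjusted p = 0.66). Zfp830, a splicing factor, rose by 0.21 and 0.26, with adjusted p from 0.0579 to 0.114 with Ova without mouse B, C or D and from 0.0501 to 0.093 with IC without mouse A or C.

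Zfp106, an RNA-binding protein needed in motor neurons, had the highest CPM of all members and 30.36 CPM per kilobase of exon, next to 30.7 for Zfp703 and 21.66 for Zfp207. It measured 237.9, 276.4, 315.1, 315.6 and 346.5 CPM in DMSO Ova, 330.7, 365.5, 362.7, 345.3 and 328.3 in iBET Ova, 282.5, 279.5, 283.7, 276.8 and 327.4 in DMSO IC and 299.2, 300.7, 341.2, 326.5 and 391.2 CPM in iBET IC. The groups overlapped under both stimuli, and mouse E of DMSO Ova was above the lowest iBET Ova libraries. The log2 fold change was 0.22 with Ova (adjusted p = 0.0493, edgeR) and 0.19 with IC (adjusted p = 0.0766, and 0.02 with the replicate block). Leaving out mouse A, B, C or D gave adjusted p values from 0.0878 to 0.139 with Ova.

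Of 12 members that bind promoters or belong to chromatin complexes, 3 were higher (25%) and 6 lower (50%) under each stimulus. This list too holds few genes chosen by role. Among all genes 27.7% were higher and 28.9% lower under Ova, and 27.1% and 29% under IC. Zfp217, which works with the CoREST demethylase complex, fell from 165 ± 28.2 to 91.8 ± 7.56 CPM with Ova and from 149 ± 21.2 to 83.2 ± 7.62 CPM with IC (SD, n = 5), a log2 change of -0.84 in both. Zfp219 fell by 0.77 and 0.83, Zfp384 by 0.55 and 0.54, and Zfp143, which anchors promoters to distant chromatin, by 0.26 and 0.34. Zfp335, a part of a histone H3K4 methyltransferase complex, fell by 0.28 and 0.31, with adjusted p = 0.0957 and 0.0514 without mouse B.

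The 3 higher factors were Zfp131, at 0.42 and 0.35, Zfp687, at 0.43 and 0.38, and Zfp281, a regulator of pluripotency, at 0.30 and 0.19, with adjusted p with IC of 0.0923 and 0.0925 without mouse A or E. Zfp148 stood at -0.04 and -0.13, Zfp592 at 0.13 and 0.21 and Zfp609 at 0.32 and 0.41, none past the threshold. With the replicate block Zfp592 and Zfp609 passed with IC (adjusted p = 0.0402 and 0.0462). Zfp532, Zfp592 and Zfp687, which work in 1 complex, thus stood at -2.12, 0.13 and 0.43 with Ova.

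Of 5 genes listed for immune cells, Zfp366 and Zfp521 were under the minimum and 3 were members. Zfp318, which controls the splicing that gives IgD in B cells, measured 29.21, 31.94, 42.41, 39.56 and 40.46 CPM in DMSO Ova, 47.49, 57.62, 55.87, 53.93 and 44.01 in iBET Ova, 26.07, 28.18, 33.41, 27.18 and 32.15 in DMSO IC and 38.32, 39.68, 47.43, 41.81 and 48.15 CPM in iBET IC. Each iBET group lay above its DMSO group without overlap. It rose 1.41-fold and 1.46-fold (adjusted p = 6.37e-04 and 2.46e-04, edgeR). Zfp91, a ubiquitin ligase of the non-canonical NF-κB pathway, fell by 0.18 and 0.22 on the log2 scale with overlapping groups, and its adjusted p rose to between 0.0662 and 0.158 with Ova when mouse A, C, D or E was left out and to 0.0837 and 0.0867 with IC without mouse C or D.

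Among 6 KRAB genes with known retroelement or imprinting targets, Zfp708 and Zfp57 were under the minimum. Zfp809, which recognises the primer binding site of murine leukaemia viruses, measured 11.21, 12.56, 15.44, 17.01 and 16.41 CPM in DMSO Ova, 19.79, 23.2, 25.08, 22.73 and 20.21 in iBET Ova, 14.47, 14.07, 16.24, 17.56 and 13.76 in DMSO IC and 23.08, 25.37, 25.29, 23.55 and 22.41 CPM in iBET IC. All iBET libraries exceeded all DMSO libraries. It rose 1.53-fold and 1.57-fold (adjusted p = 6.16e-05 and 2.67e-05, edgeR). Zfp568, a repressor of a placental Igf2 transcript, stood at -0.14 with Ova (adjusted p = 0.225) and fell by 0.39 with IC (adjusted p = 0.00202). Zfp445, which maintains imprints, stood at -0.16 with Ova (adjusted p = 0.128, and 0.0254 with the replicate block) and fell by 0.26 with IC, with adjusted p of 0.118 and 0.0848 without mouse C or D. Zfp932, which silences endogenous retroviruses, stood at 0.09 and 0.06 and passed in neither.

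Neighbouring members were then grouped, by a rule chosen after their values were seen: members of 1 chromosome with gaps of at most 1 Mb, in groups of at least 4. This gave 14 groups with 97 members. In 10 groups members higher in both contrasts lay beside members lower in both, 2 groups held only higher and 2 only lower members among those past the threshold in both. No test was made of these groups, since the values had been seen. Of all members 21.74% were higher in both and 27.54% lower in both, beside 26.3% and 25.03% of genes with the same minimum. The one-way groups lay on chromosomes 8 and 9 and at 2 places on chromosome 7. At chr7:12478293-12974236, 3 of 5 members, Zfp606, Zfp110 and Zfp128, were lower in both and none higher, and at chr7:41633203-43593235 Zfp719 alone of 5 was higher in both and none lower.

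In the group at chr8:69209038-69791178, 4 of 5 KRAB genes rose under both stimuli. Zfp866 measured 13.21, 14.7, 17.79, 14.28 and 15.64 CPM in DMSO Ova, 28.51, 37.02, 25.31, 23.77 and 24.51 in iBET Ova, 14.1, 14.61, 15.72, 14.15 and 14.53 in DMSO IC and 25.86, 28.62, 24.21, 23.93 and 25.91 CPM in iBET IC, with no overlap between iBET and DMSO. Zfp868 rose by 0.55 and 0.59 on the log2 scale and Zfp930 by 0.47 and 0.32, the latter with an adjusted p of 0.0565 with IC without mouse B. Zfp869, between Zfp868 and Zfp963, stood at 0.10 and 0.09 (adjusted p = 0.328 and 0.376, edgeR). Zfp963, given above, had the largest rise of the group. Both Zfp963 and Zfp866 share sequence with Gm20422, and how such reads were counted is not known.

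In the group at chr9:19622102-20605409, 3 of 6 KRAB genes fell under both stimuli and none rose. Zfp560 measured 8.34, 6.638, 7.532, 7.492 and 6.564 CPM in DMSO Ova, 4.361, 5.962, 4.374, 3.962 and 4.225 in iBET Ova, 7.95, 7.305, 7.372, 7.575 and 6.129 in DMSO IC and 4.772, 4.089, 3.88, 4.148 and 4.781 CPM in iBET IC. The groups did not overlap, and the iBET Ova library of mouse B was the closest to the DMSO libraries. Zfp560 fell by 0.68 and 0.74 on the log2 scale and Zfp26 by 0.43 and 0.51. Zfp426 fell by 0.21 and 0.17, with adjusted p of 0.0874 and 0.0893 with IC without mouse B or C. At chr6:47835661-48623227, by contrast, 4 genes were higher in both and 2 lower in both, among them Zfp467, with log2 fold changes with Ova from -2.61 to 0.46 among 7 neighbours. At chr13:67312998-67729173, 4 of 9 KRAB genes were lower in both and 1 was higher in both.

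**Figure D4:**
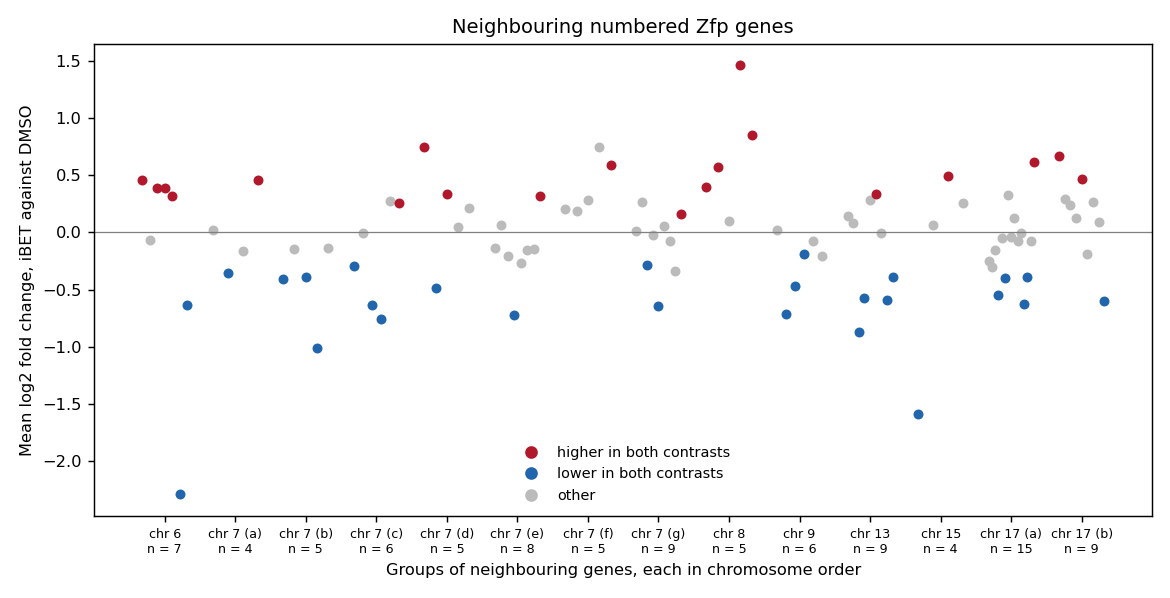
Mean log2 fold change of iBET against DMSO over both stimuli (vertical axis) for 97 numbered Zfp genes in 14 groups of neighbours (horizontal axis, n genes each), coloured by whether the gene was higher in both contrasts, lower in both, or other. Red and blue points share most groups, whereas the group on chromosome 8 holds 4 red and no blue points and the group on chromosome 9 holds 3 blue and no red points, as does 1 group on chromosome 7, while another there holds 1 red and no blue point.

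Immune complexes moved few members, in a comparison that shares its DMSO Ova libraries with the iBET comparison. With DMSO, 10 members were higher with IC than with Ova and 19 were lower, or 4.831% and 9.179%, against 9.59% and 10.7% of all genes and 11.5% and 11.5% of those with the same minimum. With iBET, 3 were higher and 12 lower, against 5.19% and 6.63% of all genes and 6.4% and 7.26% of those with the same minimum. Without mouse B, C, D or E only 7 were lower with DMSO, and without mouse C or D only 3 and 5 were higher. With iBET, 6, 5 and 3 were lower without mouse B, C or D, and 0, 1 and 0 higher without mouse A, C or D. The replicate block gave 21 and 30 with DMSO, where it called 18.3% and 19.8% of all genes, and 13 and 28 with iBET, where it called 14.2% and 14.7%. It retained all 29 and 15 of the calls made without it. The split depended on the scaling: with library size alone 4 were higher and 41 lower with DMSO (4.67% and 20.8% of all genes) and 0 and 35 with iBET (2.51% and 16.3%), since that scaling moved the median of all genes by -0.108 and -0.107. No called member changed sign under it. No member moved by 1 or more on the log2 scale.

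The largest rise with IC was that of Zfp503, whose libraries were 3.66, 5.926, 2.872, 2.871 and 2.615 CPM in DMSO Ova, 9.381, 8.167, 4.572, 4.495 and 6.494 in DMSO IC, 6.582, 7.154, 6.998, 7.158 and 7.404 in iBET Ova and 10.95, 12.61, 11.02, 9.201 and 9.785 CPM in iBET IC. Mice A and B were the highest of both DMSO groups, and the DMSO groups overlapped only because of mouse B of DMSO Ova. With DMSO it rose by 0.89 with IC (SE 0.21, adjusted p = 0.00607, edgeR), in 5 of 5 mice. With iBET it stood at 0.60 (adjusted p = 0.058, and 0.00653 with the replicate block), and the groups did not overlap.

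Zfp704 measured 124.4, 160.7, 133.2, 141.6 and 141.8 CPM in DMSO Ova and 206.5, 175.7, 165.2, 178 and 177.2 CPM in DMSO IC. It measured 79.59, 84.61, 73.36, 79.91 and 74.46 CPM in iBET Ova and 87.34, 74.44, 85.71, 79.18 and 93.74 CPM in iBET IC. The DMSO IC libraries were the highest and both iBET groups, which overlapped each other, the lowest. It rose by 0.36 with IC under DMSO (adjusted p = 0.00241, edgeR), stood at 0.10 with IC under iBET (adjusted p = 0.45, and -0.006 with library size only), and fell with iBET by 0.84 with Ova and by 1.10 with IC. Zfp275 rose with IC by 0.43 with DMSO and by 0.27 with iBET (adjusted p = 3.16e-04 and 0.0163), the latter with adjusted p from 0.064 to 0.12 without mouse A, D or E. Zfp326 and Zfp655 rose by 0.56 and 0.35 with DMSO, and their adjusted p was 0.0894 to 0.132 without mouse C or D and 0.0894 to 0.176 without mouse A, C or D.

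Zfp810, a KRAB gene (chr9:22276748-22307648, minus strand), was lower with IC under both treatments. It measured 10.53, 11.08, 9.603, 11.06 and 10.26 CPM in DMSO Ova, 6.519, 6.67, 6.812, 7.034 and 5.926 in DMSO IC, 8.076, 9.322, 7.581, 7.608 and 6.651 in iBET Ova and 5.993, 7.421, 6.311, 5.244 and 6.338 CPM in iBET IC. The DMSO groups did not overlap, whereas the iBET groups did. It fell by 0.67 with DMSO and by 0.32 with iBET (adjusted p = 7.87e-05 and 0.0345, edgeR), the latter with adjusted p from 0.127 to 0.174 without mouse A, C or D. Zfp710, given above, fell with IC by 0.50 with DMSO and by 0.81 with iBET (adjusted p = 1.64e-04 and 1.65e-06), and Zfp207 by 0.40 and 0.32.

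Zfp346 fell with IC by 0.53 with DMSO (adjusted p = 5.38e-05) and stood at -0.20 with iBET (adjusted p = 0.0625, and 0.0154 with the replicate block). Zfp467 and Zfp825 fell by 0.80 and 0.51 with DMSO. Their adjusted p was 0.0889 to 0.164 without mouse B, C, D or E for Zfp467 and 0.0766 to 0.116 without mouse B, D or E for Zfp825.

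With iBET, Zfp963, Zfp945, Zfp943 and Zfp608 were also lower with IC, by log2 changes of -0.45, -0.51, -0.42 and -0.40, and Zfp709 and Zfp382 higher, at 0.33 and 0.30. Each of these 6 lost its call when at least 2 different mice were left out in turn, with adjusted p up to 0.11 for Zfp963 without any 1 of the 5, 0.126 for Zfp945 without mouse B or D, 0.129 for Zfp943 and 0.0998 for Zfp608 without mouse B, C or D, 0.155 for Zfp709 without mouse A, C or D and 0.175 for Zfp382 without mouse A, C, D or E.

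**Figure D5:**
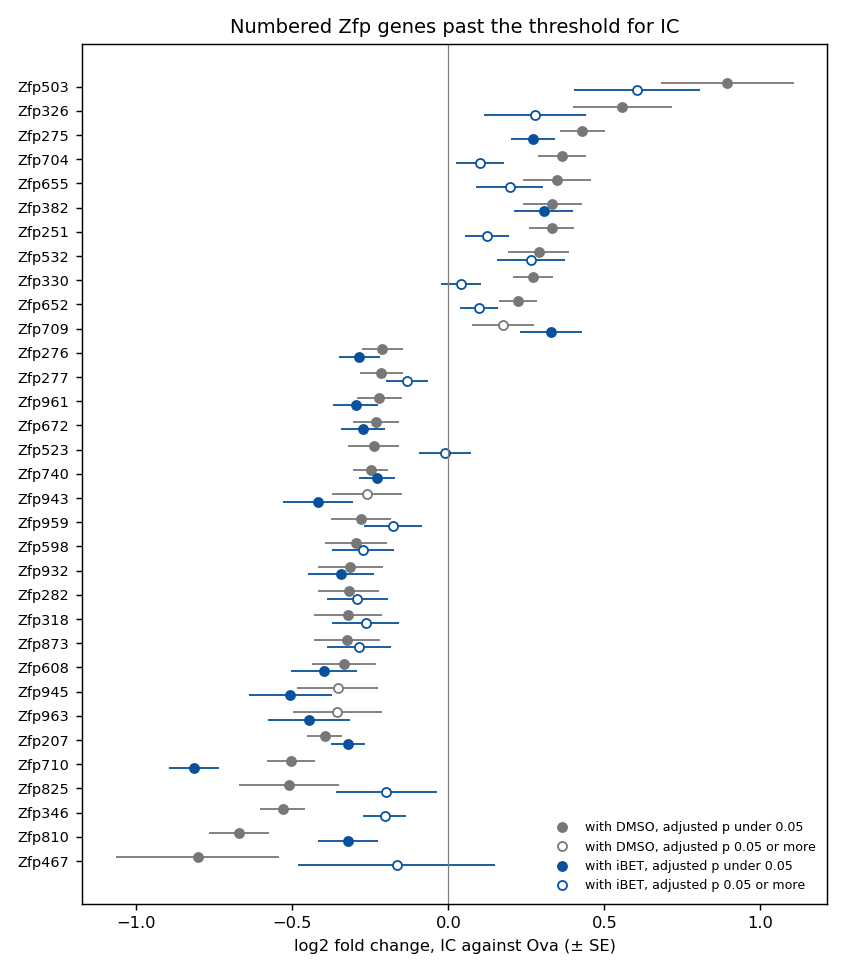
Log2 fold change of IC against Ova with its SE (horizontal axis) for each numbered Zfp gene past the threshold with DMSO (grey) or iBET (blue), filled where the adjusted p was under 0.05. Zfp503 stands highest with both treatments, and Zfp710 is lower with iBET than any other gene plotted.

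The effect of iBET with IC did not differ from its effect with Ova in any member at an adjusted p under 0.05 in edgeR, and 5 genes of 12465 (0.0401%) did so. Unadjusted, 7 of 207 members had p under 0.05 in edgeR, beside 543 of all 12465 genes and 420 of the 9782 with the same minimum. The Wald test of DESeq2 gave 0 members past the adjusted threshold as well, without and with the replicate block. The smallest p belonged to Zfp346, whose iBET effect was 0.33 larger with IC on the log2 scale (SE 0.11, adjusted p = 0.662, edgeR), followed by Zfp710, at -0.31 (adjusted p = 0.959), and Zfp74, at -0.35 (adjusted p = 0.98). Zfp74, a KRAB gene, fell by 0.54 with Ova and by 0.90 with IC.

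The summed level of all members was 4722, 5006, 5279, 5141 and 5322 CPM in DMSO Ova, 5017, 5518, 4990, 4864 and 4707 in iBET Ova, 5037, 5054, 5024, 5004 and 4999 in DMSO IC and 4765, 4852, 4813, 4733 and 5022 CPM in iBET IC. The groups overlapped under both stimuli, and mice A and B had higher sums with iBET under Ova than with DMSO whereas mice C, D and E had lower ones. Under IC this split did not recur: mice A, B, C and D had lower sums with iBET and mouse E a higher one.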

How the data were processed

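Per the labels and the methods, the authors prepared libraries with a SMARTer pico-input kit, trimmed reads with Trim Galore, aligned them with HISAT2 to mm10 and assigned them to genes with featureCounts. They deposited raw counts per gene, which were used here, and a second table of counts divided by size factors, which was not used. The annotation and strand setting are not given in the sources used here.

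Counts were filtered with filterByExpr, scaled with TMM and fitted over 20 libraries and 4 groups with edgeR 4.0.16 in R 4.3.3. CPM values are TMM-normalized. Library totals of 16447491 to 29245150 set their precision. Alternatives are listed in the closing section and used DESeq2 1.42.0 and sva 3.50.0. Mouse letters pair the libraries, as the labels name the mouse, and same-mouse libraries correlated in their deviations (mean 0.524, lowest 0.307, 30 pairs). On simulated counts for iBET with Ova, the fit without the block recovered 72% of 200 changed genes, and 5.263% of its calls were false. The simulated counts held no effect of the mouse, so they could not test what leaving the pairing out does. Values after ± are SDs between mice. The SE of a log2 fold change was computed from that change and the F statistic of its edgeR test, and is no spread between mice.

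Members, gene lists and the rule for named genes were chosen with earlier results of these data known. The rule named the 10 largest rises and falls over both iBET contrasts (same way in 5 of 5 mice), the 6 highest by CPM, up to 5 each way for IC, the 3 smallest interaction p values, the 3 members on either side of the minimum and the role lists. Neighbours, Zfp703 and Zfp324 were named after their values were seen. Proteins were translated from coding transcripts of GENCODE M21 (GRCm38), and fingers were counted as C-x(2,4)-C-x(12)-H-x(2,6)-H. KRAB was found by the start or end of its A box. The pattern for that start had 1 free residue fewer than first written, a correction made after the data were seen. Overlap was searched in the same annotation. No RefSeq protein table was used here.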

Additional observations from a re-analysis of the deposited data

Results flagged for a closer look

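In 64 groups of 5 libraries, from 16 members given library by library, 2 libraries stood apart by Dixon's criterion, which chance reaches in about 1 of 20 groups. Mouse E of DMSO IC had 327.4 CPM of Zfp106, against 276.8 to 283.7 CPM in the other 4. Mouse B of iBET Ova had 5.962 CPM of Zfp560, against 3.962 to 4.374 CPM in the other 4.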

How the results depend on the processing

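The counts of members moved by iBET kept within 1.5 times under the replicate block, DESeq2, other scalings, no filter, surrogate variables, only the libraries compared, each mouse left out and minimums of 50 or 200 counts. The block gave 62 higher and 70 lower with Ova and 59 and 73 with IC. The shares of all genes that it called for iBET are not given here. In mice A and B alone, the number lower with Ova was 32, and with IC 31 rose and 42 fell. IC counts were less stable. With DMSO they were 21 higher and 30 lower under the replicate block, 17 and 29 in DESeq2 with that block, 4 and 41 with library size only, 22 higher with surrogate variables, 9 lower without a filter, 12 lower with only the libraries compared, and 1 and 3 in mice A and B. Leaving each mouse out gave 3 to 12 higher and 7 to 17 lower. With iBET they were 13 and 28 under the block, 5 higher in DESeq2, 12 and 27 in DESeq2 with the block, 0 and 35 with library size only, 12 higher with surrogate variables, 0 and 1 in mice A and B and 5 lower in mice C, D and E. Leaving each mouse out gave 0 to 4 higher and 3 to 9 lower. Library size only moved the median to -0.094 (iBET with IC), -0.105 (IC with DMSO) and -0.143 (IC with iBET).

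Among the members named in the text, signs turned for these values, none called without the replicate block: in mice A and B, Zfp593 (0.035) and Zfp609 (-0.060) with IC and Zfp148 (0.188), Zfp445 (0.034) and Zfp568 (0.003) with Ova, Zfp148 without mouse E (each mouse left out, -0.095 to 0.021), and Zfp330 with IC under library size only (-0.018), and Zfp704 with IC against Ova under iBET, at -0.006 with library size only and -0.011 in mice A and B. Zfp609 with IC and Zfp445 with Ova, which turned, were called with the block. Outside the named members, Zfp324, called with IC, turned in mice A and B. The cause was not tested. With the KRAB pattern as first written, 81 members matched and 20 (24.69%) were lower with IC, against 31 of 109 (28.44%) with the pattern corrected after seeing the data. The block gained calls and, as given above, lost none among members in the 4 pairwise contrasts. Depth limits the rarer members, near 5 CPM.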
